A study of Drosophila melanogaster with 24 samples.

Results

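The nuclear genes for the proteins of the mitochondrial ribosome were followed in fruit flies (Drosophila melanogaster) that lack Su(Hw), a zinc finger protein that binds insulator sequences in chromatin. The members were all probes whose only gene symbol begins with mRpL or mRpS and a digit, and there were 68 of them, for 68 genes, among the 14444 probes analysed, which named 11610 genes by a probe of their own. Of these, 43 genes encode proteins of the large subunit and 25 encode proteins of the small subunit. The gene table used here lists 73 genes of such names, and mRpL14, mRpL34, mRpL47, mRpL53 and mRpS21 had no probe of their own. The genes were spread over the genome, with 12 on chromosome arm 2L, 10 on 2R, 17 on 3L, 19 on 3R and 10 on X.

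The mitochondrial ribosome translates the few proteins that are still encoded by mitochondrial DNA, which are core subunits of the respiratory chain and the ATP synthase. Its RNAs come from the mitochondrial genome, whereas its proteins are made in the cytosol from nuclear genes and imported. The large subunit holds the peptidyl transferase centre and the exit tunnel of the new chain, and the small subunit holds the decoding site. Some of the proteins have counterparts in bacterial ribosomes and others are found only in mitochondria.

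Expression was measured in whole larvae collected as soft white pre-pupae and in wing imaginal discs dissected at the same stage. The genotypes were su(Hw)/Df (the su(Hw)v chromosome with its p[CasX/K] transposon over the deletion Df(3R)ED5644, called the null), su(Hw)/+ (the same su(Hw)v chromosome over an Oregon R chromosome) and Df/+ (the deletion over an Oregon R chromosome). All were the non-Tubby progeny of crosses of stocks carrying the TM6B, Tb balancer, and the labels give w for the su(Hw)v stock. Each genotype had 4 arrays per tissue, 24 in all, and each array set a genotype against pooled wild-type RNA from that tissue, with 2 arrays of each dye orientation. A larval extract held 10 or 20 animals and a disc extract held 6 discs by the labels, whereas the study's methods give a larger number of discs. Each tissue had a single pool, so its own spread is not part of any error given here, and an offset in the pool would appear in all genotypes. The deletion removes 1 copy of other genes beside su(Hw) in both su(Hw)/Df and Df/+, and only su(Hw)/Df has the pair of mutant chromosomes and no Oregon R copy of this chromosome. In RNA from whole animals or discs, fewer cells of a type and less RNA per cell cannot be told apart.

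Values are log2 ratios of a genotype to the pool, so 0 means the level of the pool and a difference of 1 is a 2-fold change. The probe of su(Hw) had a mean of -2.92 in su(Hw)/Df larvae and -2.28 in su(Hw)/Df discs (n = 4 each), against -0.54 and -0.36 in su(Hw)/+ and -0.33 and -0.65 in Df/+. In larvae, 44 of the 68 members (64.7%) had a value on all 12 arrays, against 44.5% of all probes, and in discs 31 (45.6%) did, against 23.1%. mRpL42 had no value on any array, and mRpL45 had a single larval value and none in discs. The spread of the members between the arrays of a genotype was like that of other probes, with median SDs of 0.28 to 0.36 on the log2 scale in the 6 groups, against 0.30 to 0.35 over all probes. Since the files hold ratios only, levels of different genes could not be compared, and whether the defining markers of a tissue are present could not be read from them.

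No mitochondrial ribosomal protein gene passed the test between su(Hw)/Df and the 2 heterozygotes in either tissue. In larvae, 59 members had at least 3 values in each genotype and could be tested. None was called at an adjusted p of 0.05 (limma with Benjamini-Hochberg adjustment over all probes tested), where 2.84% of all probes were called (233 of 8197). At an unadjusted p under 0.05 there were 4 members (6.78%), against 16.2% of all probes. The median difference of the members was -0.07 on the log2 scale, with 22 above 0 and 37 below, and the median over all probes was 0.02. Leaving out single arrays moved the members' median between -0.13 and 0.10, with the highest value without su(Hw)/Df replicate 4. The large subunit had a median of -0.07 over 37 genes and the small subunit -0.03 over 22. By array, su(Hw)/Df and the heterozygotes overlapped for each of the 59 members tested, while 1.37% of all probes lay wholly above and 2.1% wholly below the heterozygotes.

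The intervals of these differences were narrow enough to bound the size of a change for most members. For 54 of the 59 the 95% interval lay within a 2-fold change in either direction, and for 23 it lay within 1.5-fold. The intervals that reached beyond a 2-fold change were those of mRpL1, mRpL11, mRpS2, mRpS7 and mRpS26. mRpS2, whose bacterial counterpart sits between the head and body of the small subunit, had the lowest difference. Its su(Hw)/Df arrays read -0.08, -0.50 and -1.54, its su(Hw)/+ arrays 0.72, 0.10, 0.58 and -0.50, and its Df/+ arrays 0.35, 0.43, -0.36 and 0.24. The genotypes overlapped, and the difference of -0.90 (SE 0.32, fold 1.87 lower) had an adjusted p of 0.177 in limma. mRpS22, a protein of the small subunit found only in mitochondria, had the highest difference. Its su(Hw)/Df arrays read 1.15, 1.14, 0.73 and 0.53, the su(Hw)/+ arrays 0.91, 0.51, 0.29 and 0.26, and the Df/+ arrays 0.57, 0.28, -0.02 and 0.38. The lower su(Hw)/Df arrays fell among the higher heterozygote arrays, and the difference of 0.49 (SE 0.18) had an adjusted p of 0.179. Next to these stood mRpL11 at -0.59 and mRpL1 at -0.53 on the lower side and mRpL3 at 0.44 and mRpL30 at 0.35 on the higher side, none of which passed. For mRpL3 and mRpL30 the su(Hw)/Df mean was near that of su(Hw)/+, and Df/+ was the low group. The means in su(Hw)/Df, su(Hw)/+ and Df/+ were 0.63, 0.55 and -0.18 for mRpL3 and -0.003, 0.01 and -0.72 for mRpL30.

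**Figure D1:**
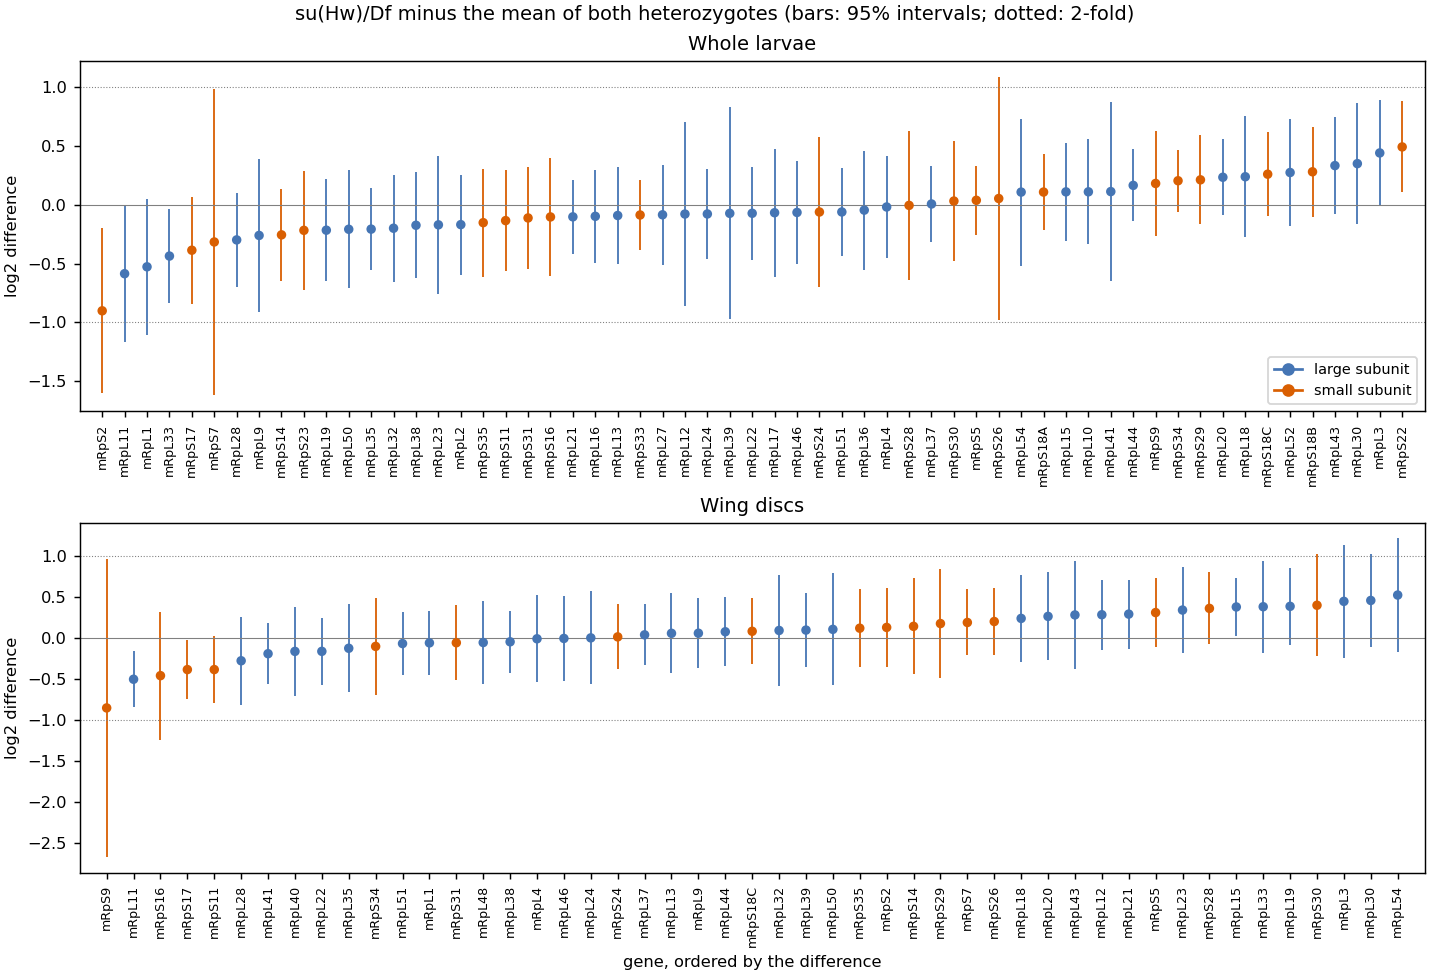
The log2 difference between su(Hw)/Df and the mean of both heterozygotes is plotted for each member tested, 59 in larvae and 49 in wing discs, as a point with its 95% interval, coloured by subunit. Most intervals cross 0, and in larvae 54 of the 59 stay inside the dotted lines at a 2-fold change.

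In wing discs 49 members could be tested against the heterozygotes, and again none was called, where 0.0901% of all probes were (5 of 5550). The count at an unadjusted p under 0.05 was 3 (6.12%), against 240 of all probes (4.32%). The median of the members was 0.09 and that of all probes 0.10. For 43 of the 49 members the 95% interval lay within a 2-fold change. The lowest value was that of mRpS9, at -0.85 with an SE of 0.85, and the highest that of mRpL54, at 0.53 with an SE of 0.32, and neither passed. The mRpS9 value came with a single su(Hw)/+ array, replicate 2, at 5.94, and without that array the difference was -0.15 (SE 0.26). The next were mRpL11 at -0.50 and mRpS16 at -0.46, and mRpL30 at 0.46 and mRpL3 at 0.45, which did not pass either. The mRpL54, mRpL30 and mRpL3 values came with a single high array, su(Hw)/Df replicate 3, on which they read 1.29, 1.18 and 1.37, while their other su(Hw)/Df disc values lay between -0.46 and 0.24. mRpS17, a small subunit protein with a bacterial counterpart, was the only one of the 49 tested members whose su(Hw)/Df arrays all lay below all heterozygote arrays, where 0.234% of all probes did so. Its su(Hw)/Df discs read -0.43, -0.45, -0.58 and -0.30, while its su(Hw)/+ discs read 0.00, 0.12 and -0.15 and its Df/+ discs -0.12, -0.22 and 0.02. The difference was -0.38 (SE 0.17, interval -0.75 to -0.02), with an unadjusted p of 0.0412 and an adjusted p of 0.923 in limma.

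The difference between the tissues was tested for 47 members in a fit over all 24 arrays, and none passed, as was the case for all 5105 probes. At an unadjusted p under 0.05 there were 225 of all probes (4.41%) and 2 members (4.26%). The 2 members were mRpS2 and mRpL33, each with an adjusted p of 0.850. Across the 47 genes the larval and disc differences had a correlation of 0.26, and across all probes it was 0.36. Genes are not independent replicates, and the arrays of a tissue share a pool, a dye plan and a normalization.

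**Figure D2:**
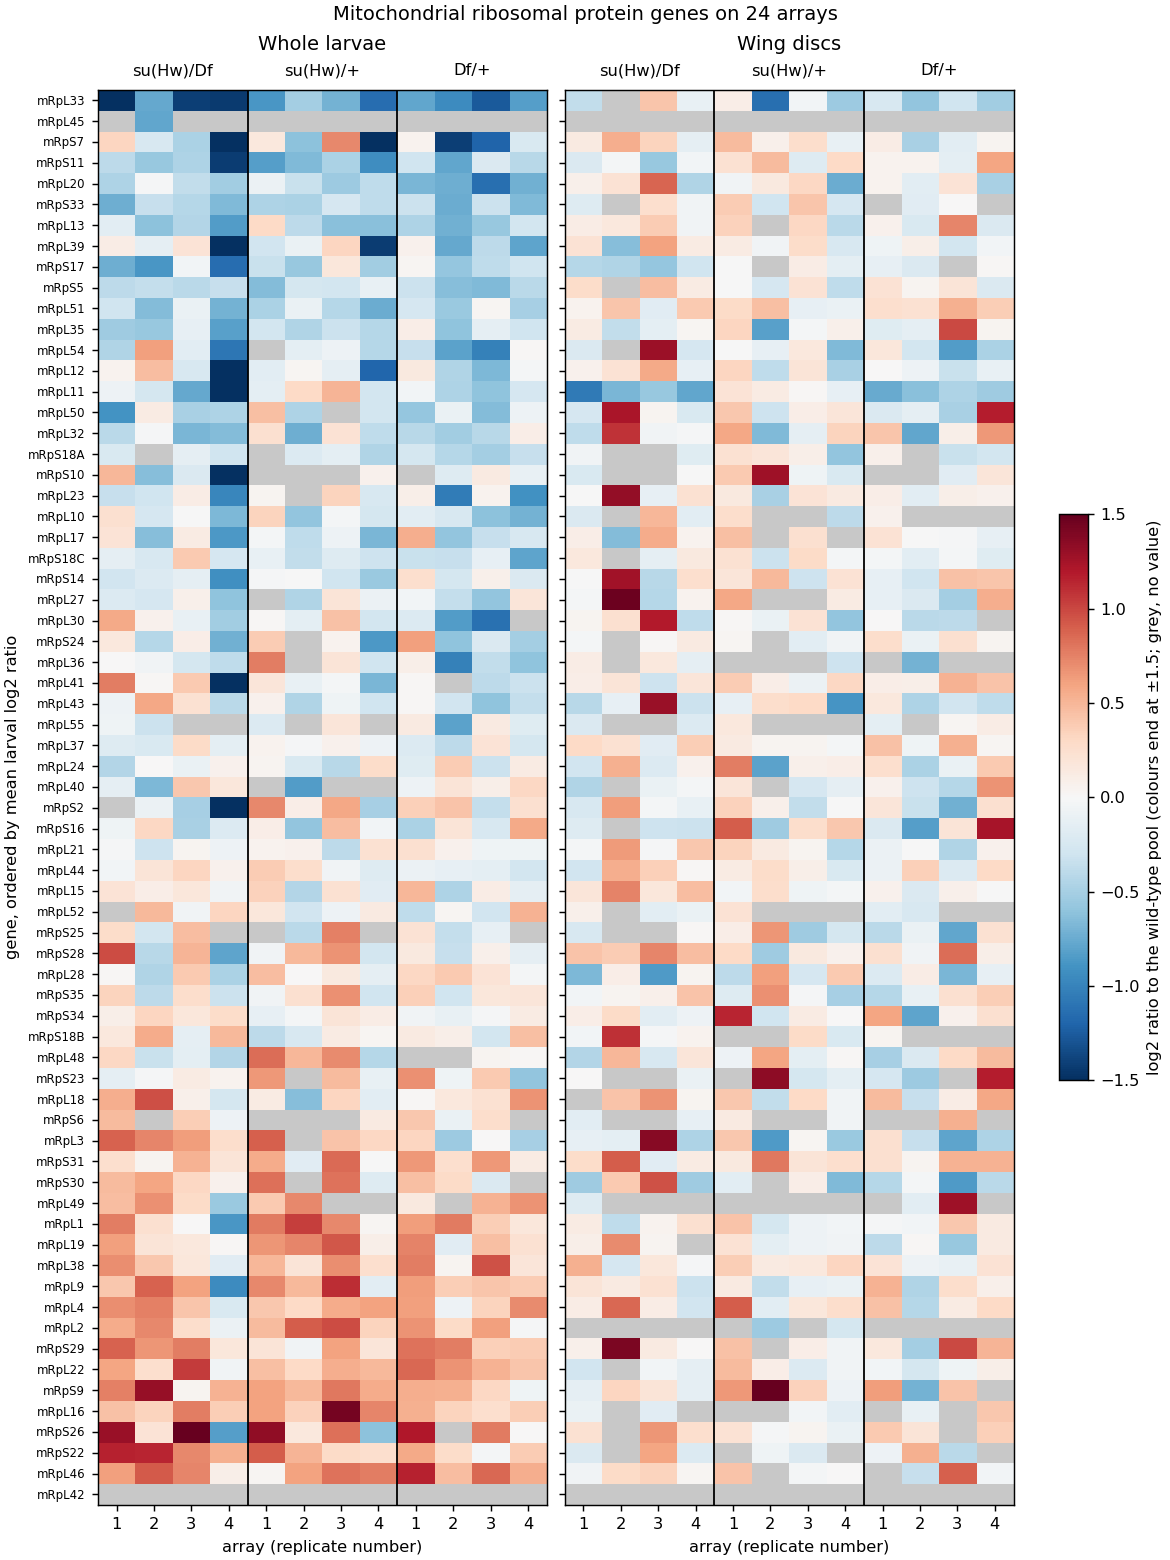
Each row is a member and each column an array, with colour giving the log2 ratio to the wild-type pool (red above, blue below, grey where there is no value), in whole larvae at left and wing discs at right. Rows of a single colour, such as mRpL33 at the top of the larval panel and mRpL46 just above the grey bottom row of mRpL42, run across all 3 genotypes. The larval column of su(Hw)/Df replicate 4 is the bluest.

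Against the wild-type pool, su(Hw)/Df larvae had 16 of 65 members past the test (24.6%), which is near the 27.7% of all probes that passed in this comparison. Of these, 7 were higher (10.8%, against 14.5% of all probes) and 9 were lower (13.8%, against 13.2%). Calls thus went both ways among the members as they did among all probes, which is no result about the members in particular. Of 40 large subunit members tested, 4 were higher and 5 lower, and of 25 small subunit members, 3 were higher and 4 lower. These subunit counts are to be read beside the same shares of all probes, 14.5% higher and 13.2% lower. The median over the members was -0.07, beside 0.03 over all probes. Calls changed with single arrays: leaving out su(Hw)/Df replicate 1 gave 10 members, as did leaving out replicate 3, and 6 of the 16 passed whichever of the 12 larval arrays was left out. Those 6 were mRpL33, mRpS11, mRpS17 and mRpS33, which were lower, and mRpS22 and mRpS29, which were higher. The share of all probes called without an array is not given, so these counts describe the members' calls only.

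mRpL33, a small protein of the large subunit with a bacterial counterpart, was the lowest of all members in larvae. Its su(Hw)/Df arrays read -1.66, -0.76, -1.41 and -1.43, its su(Hw)/+ arrays -0.88, -0.51, -0.71 and -1.14, and its Df/+ arrays -0.78, -0.94, -1.26 and -0.82. All 12 larval arrays were below the pool, and the genotypes overlapped. The mean in su(Hw)/Df was -1.32 (SE 0.15), which is 2.49-fold below the pool, with an adjusted p of 5.79e-05 in limma. The means of the heterozygotes were -0.81 and -0.95, and the difference of su(Hw)/Df from both was -0.44 (SE 0.18, adjusted p 0.257). In discs the su(Hw)/Df arrays of this gene read -0.37, 0.42 and -0.11, the su(Hw)/+ arrays 0.10, -1.13, -0.04 and -0.54, and the Df/+ arrays -0.24, -0.59, -0.30 and -0.52, and it passed no test there.

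mRpS11, which in bacterial ribosomes lies on the platform of the small subunit, was also below the pool on all 12 larval arrays. Its su(Hw)/Df arrays read -0.39, -0.56, -0.46 and -1.42, of which the last stood apart from the others. Its su(Hw)/+ arrays read -0.83, -0.66, -0.47 and -0.93 and its Df/+ arrays -0.29, -0.78, -0.22 and -0.41. The means of su(Hw)/Df and su(Hw)/+ were nearly equal, at -0.71 (SE 0.17, adjusted p 0.00713) and -0.72 (SE 0.16, adjusted p 0.00586). mRpS17 had a mean of -0.70 in su(Hw)/Df larvae, from -0.73, -0.87, -0.04 and -1.14, and passed the test at an adjusted p of 0.0111. mRpS33, found only in mitochondria, had a mean of -0.54 with an adjusted p of 0.00476 and was likewise below 0 on all 12 arrays.

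The other lower calls were mRpL11 at -0.71, mRpL13 at -0.51, mRpL35 at -0.51, mRpL51 at -0.44 and mRpS5 at -0.37. mRpL11 forms the base of the stalk that binds translation factors. Its larval call came with a low array: without su(Hw)/Df replicate 4 its mean was -0.37 and it no longer passed.

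Of the members that were higher, mRpS22 had the highest mean in su(Hw)/Df larvae, 0.89 (SE 0.15), or 1.85-fold above the pool, with an adjusted p of 0.000915. Its means in the heterozygotes were 0.49 in su(Hw)/+, which passed, and 0.30 in Df/+, which did not. mRpS29, a GTP-binding protein of the small subunit known in mammals as DAP3, had a mean of 0.62 (adjusted p 0.00786), with 0.88, 0.66, 0.77 and 0.17 on the 4 arrays. mRpL3, which reaches the peptidyl transferase centre in bacterial ribosomes, read 0.89, 0.73, 0.63 and 0.26, with a mean of 0.63 (adjusted p 0.0161). All 4 of these arrays were above the pool for both genes. The remaining higher calls were mRpS9 at 0.66, mRpL46 at 0.59, mRpL16 at 0.48 and mRpL22, a protein of the exit tunnel, at 0.46. mRpL46 and mRpL16 were the only members above the pool on all 12 larval arrays, yet the su(Hw)/Df call of mRpL46 ended on leaving out any 1 of 3 particular arrays, and that of mRpL16 any 1 of 4. mRpL4, another protein of the exit tunnel, read 0.70, 0.76, 0.41 and -0.22 in su(Hw)/Df larvae, with replicate 4 the only array below the pool, and did not pass.

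In larvae, 2 of the 44 members with all 12 values were above 0 throughout (4.55%), against 10.4% of all such probes, and 5 were below 0 throughout (11.4%), against 11.7%. The 5 were mRpS11, mRpS5, mRpS33, mRpL33 and mRpL20. In discs no member of 31 lay on a single side, and 0.449% and 0.868% of all probes did.

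**Figure D3:**
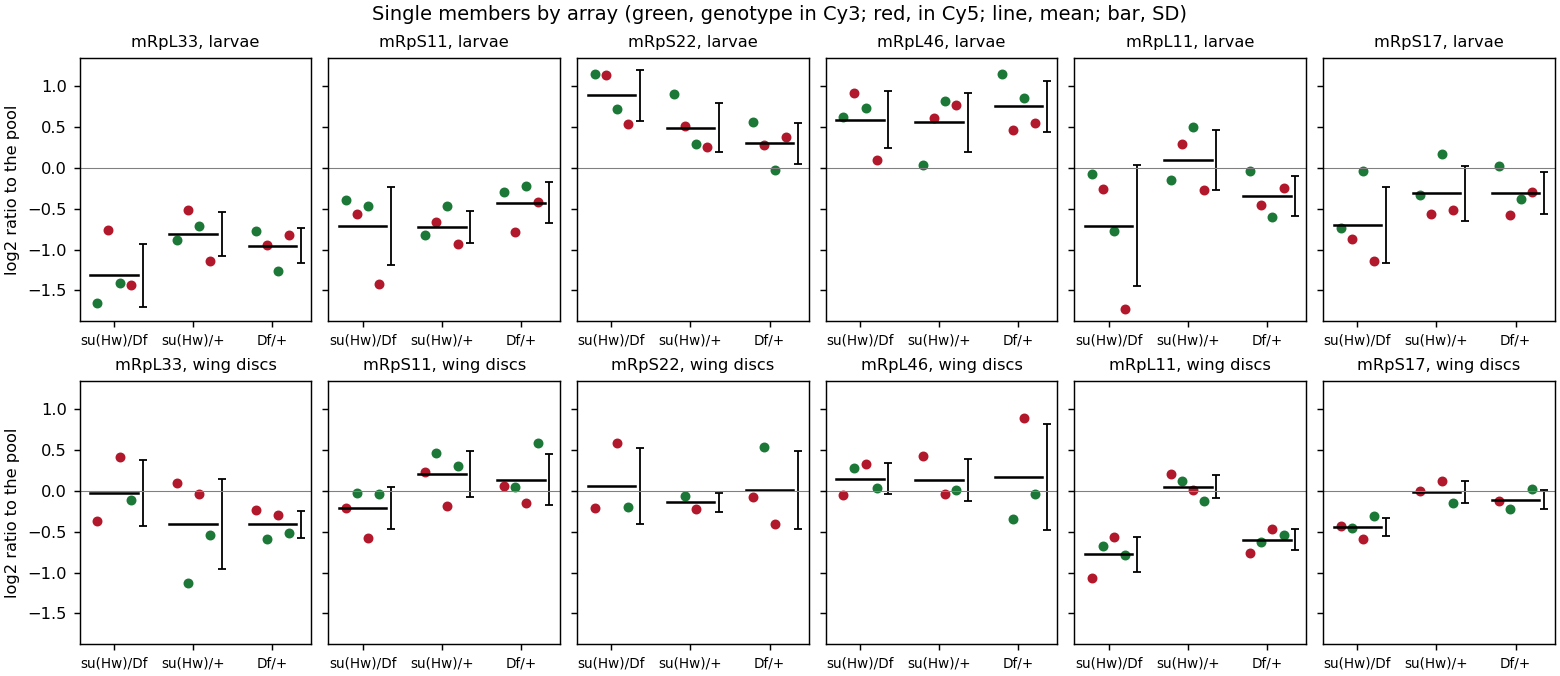
Log2 ratios of 6 members are shown by array and genotype in larvae (top) and wing discs (bottom), with green points for arrays with the genotype in Cy3 and red for Cy5, a line at the mean and a bar for the SD. In larvae mRpL33 and mRpS11 lie below 0 and mRpL46 above 0 in all genotypes, and in discs mRpL11 is low in the 2 genotypes that carry the deletion.

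The heterozygotes, each with a single mutant chromosome over an Oregon R chromosome, were set against the same pool. In su(Hw)/+ larvae 14 of 60 members passed (23.3%, against 28.3% of all probes), 9 higher (15%, against 14.6%) and 5 lower (8.33%, against 13.7%). The count was 9, 7 and 6 without su(Hw)/+ replicate 1, replicate 2 and replicate 3. The share of all probes called in those fits is not given, so these counts describe the members' calls only. The 4 members mRpL2, mRpL16, mRpL33 and mRpS11 passed whichever array was left out. The highest of those that passed were mRpL16 at 0.78 (SE 0.15, adjusted p 0.00255), mRpL2, which in bacteria is among the proteins nearest the peptidyl transferase centre, at 0.67 (SE 0.16, adjusted p 0.00853), and mRpL1, a protein of the mobile stalk beside the exit site, at 0.64 (SE 0.22, adjusted p 0.0461). The lowest that passed were mRpL33 and mRpS11, followed by mRpL51 at -0.43.

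In Df/+ larvae 10 of 65 members passed (15.4%, against 19.7% of all probes), 3 higher (4.62%, against 9.38%) and 7 lower (10.8%, against 10.3%), and with dye orientation as a covariate 17 passed (26.2%, against 28.2% of all probes in that fit). The highest of the 3 that passed were mRpL46 at 0.76 (SE 0.17), mRpL22 at 0.62 and mRpS29 at 0.58. The lowest that passed were mRpL33, mRpL20 and mRpL30, a protein that bacterial ribosomes also have, at -0.72. mRpL20, whose bacterial counterpart acts early in assembly of the large subunit, read -0.68, -0.73, -1.13 and -0.72 in Df/+, against -0.09, -0.33, -0.55 and -0.38 in su(Hw)/+ and -0.47, -0.01, -0.36 and -0.52 in su(Hw)/Df. Every Df/+ array was lower than every array of the other genotypes for this gene, which was so for 1.4% of all probes, and its mean of -0.82 (SE 0.13) had an adjusted p of 0.00136 against the pool. Set directly against su(Hw)/+, it differed by -0.48 (SE 0.18) with an adjusted p of 0.325. None of the 59 members tested between Df/+ and su(Hw)/+ was called in limma, where 0.272% of all probes were. An unadjusted p under 0.05 was held by 4 members (6.78%), against 11.2% of all probes. They were mRpL30 at -0.73, mRpL3 at -0.73, mRpL36 at -0.69 and mRpL20. The comparisons with the pool share that pool, so that a gene called in several of them, as mRpL33 was, was not measured independently each time.

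In wing discs only 1 of 57 members passed between su(Hw)/Df and the pool (1.75%, against 0.873% of all probes), and it was lower, as were 0.526% of all probes. None of 54 passed in su(Hw)/+ (0.595% of all probes) and none of 56 in Df/+ (0.163%). An unadjusted p under 0.05 was held by 1 member in su(Hw)/+ (1.85%, against 6.19% of all probes). In Df/+ it was held by 3 (5.36%, against 6.04% of all probes). Between Df/+ and su(Hw)/+, none of 52 passed (0.0169% of all probes), and 1 member had an unadjusted p under 0.05 (1.92%, against 2.16% of all probes). In su(Hw)/Df discs 47 of 57 members lay above 0 (82.5%), against 58.0% of all probes, with a median of 0.11 beside 0.04. The members' share above 0 exceeded that of all probes in the heterozygotes too, at 64.8% against 48.2% in su(Hw)/+ and 57.1% against 36.6% in Df/+. The size of the su(Hw)/Df median followed single arrays, and ranged from 0.04 without su(Hw)/Df replicate 2 to 0.22 without su(Hw)/Df replicate 1.

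The disc member that passed was mRpL11. Its su(Hw)/Df discs read -1.07, -0.68, -0.57 and -0.78, its Df/+ discs -0.76, -0.63, -0.47 and -0.53, and its su(Hw)/+ discs 0.20, 0.13, 0.01 and -0.13. All 8 arrays of the genotypes with the deletion lay below all 4 arrays of su(Hw)/+, as was the case for 0.216% of all probes. The mean in su(Hw)/Df was -0.77 (SE 0.13, 1.71-fold below the pool, adjusted p 0.00478 in limma), and without su(Hw)/Df replicate 1 it was -0.67 and did not pass. The mean in Df/+ was -0.60 with an adjusted p of 0.0753.

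The gene is the member closest to su(Hw) on 3R, 14 protein-coding genes and 207.4 kb away in the gene table, and the next member with a probe, mRpS10, is 91 genes away. The end points of the deletion were not used here, so whether mRpL11 lies within it was not read from coordinates. In discs the genotypes with the deletion were lower than su(Hw)/+ by a log2 difference of -0.74, or 1.67-fold, which is given as a description with no test because this grouping was chosen after the values had been seen. Between Df/+ and su(Hw)/+ the difference was -0.65 (SE 0.18), with an unadjusted p of 0.00299 and an adjusted p of 0.999 in limma, and su(Hw)/Df differed from Df/+ by -0.18. In larvae mRpL11 read -0.08, -0.26, -0.77 and -1.73 in su(Hw)/Df, -0.04, -0.46, -0.61 and -0.25 in Df/+, and -0.15, 0.30, 0.51 and -0.27 in su(Hw)/+. The larval difference by deletion was -0.62, and the groups overlapped.

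Among the 25 genes on either side of su(Hw), those with at least 3 values in both heterozygotes were compared in the same way. In discs all 8 such genes other than mRpL11 were lower in Df/+ than in su(Hw)/+, with a median of -0.47, where 61.6% of all probes were lower. In larvae 13 of 20 were lower (65.0%, against 56.0% of all probes), with a median of -0.26. ATPsynE, a subunit of the mitochondrial ATP synthase that lies 6 genes from su(Hw), had disc means of -1.09 in su(Hw)/Df, -0.92 in Df/+ and 0.10 in su(Hw)/+.

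The level of the members varied with the array. Per array, their larval median ranged from -0.42 to 0.22, and that of all probes from -0.13 to 0.27. The median difference between arrays with the genotype in Cy3 and in Cy5 was 0.29 over 62 members, against 0.09 over all probes, and mRpS26 had the largest, at 1.36. Taken without sign the medians were 0.30 and 0.25, and 19.4% of members exceeded 0.5 in size, against 20.2% of all probes. The larval array medians averaged 0.11 in Cy3 and -0.19 in Cy5 for the members, against 0.14 and -0.08 for all probes. In discs the median difference was -0.11, against -0.09. Each genotype had 2 arrays of each dye, so that this difference cancels in a genotype mean with all 4 values. With genotype means, dye means and array medians removed, the mean pairwise correlation was 0.15 over 44 members in larvae and 0.11 over 31 in discs. Over cytosolic ribosomal protein genes it was 0.11 and 0.23, over proteasome genes 0.02 and 0.18, over respiratory chain genes 0.06 and 0.15, and over all probes 0.00 in both tissues. These are descriptions over 12 arrays that share a pool and a normalization.

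The lowest array was su(Hw)/Df replicate 4 of the larvae, with a member median of -0.42 against -0.13 over all probes. The other su(Hw)/Df larval arrays had member medians of 0.13, -0.01 and 0.10. On that array 11 members were below -1, and no more than 5 were on any other array. The 7 below -1.5 were mRpS7 at -3.13, mRpL39 at -2.16, mRpS10 at -1.87, mRpL12 at -1.82, mRpL11 at -1.73, mRpS2 at -1.54 and mRpL41 at -1.51. Of these genes, mRpS7, mRpL39 and mRpL12 also read low on su(Hw)/+ replicate 4, at -1.99, -1.42 and -1.19. Without su(Hw)/Df replicate 4 the larval member median against the heterozygotes was 0.10 in place of -0.07, no member passed, and 16 members passed against the pool, of which 11 were among the 16 called with all arrays. In discs, 7 members exceeded 1 on su(Hw)/Df replicate 2, the array with the fewest values, where 43 members were measured, and 4 did so on su(Hw)/Df replicate 3. For none of these arrays, larval or disc, is the share of all probes past these cuts given, so the counts describe the members only.

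**Figure D4:**
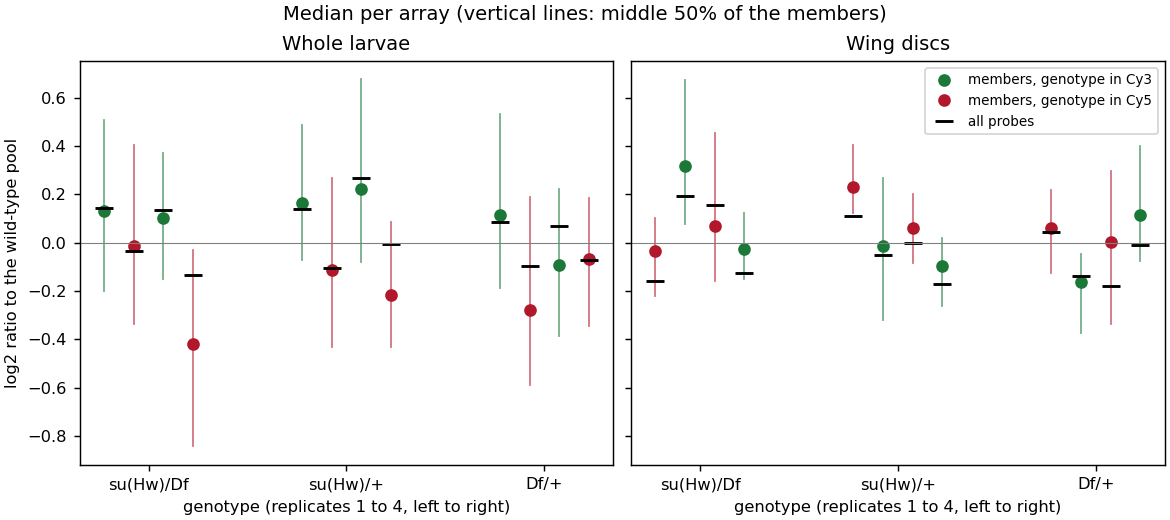
The median log2 ratio of the members on each array (points, green or red by dye orientation, with lines for the middle 50% of the members) is set beside the median over all probes (black dashes). In larvae the Cy5 arrays are the lower ones in su(Hw)/Df and su(Hw)/+, and su(Hw)/Df replicate 4 has the lowest median, -0.42.

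By their names, 39 members carry numbers that bacterial ribosomal proteins also use (L1 to L36 and S1 to S21), and 29 carry later numbers. The groups go by number only, and whether each protein has a bacterial counterpart was not checked. This grouping was made after values had been seen and gets no test. In su(Hw)/Df larvae against the pool, the first group had 4 higher and 7 lower of 39 tested with a median of -0.17, and the second had 3 higher and 2 lower of 26 with a median of 0.08. Against the heterozygotes the medians were -0.09 and 0.00 with no calls, and in discs 0.10 and 0.06.

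Other genes on which the mitochondrial ribosome depends were counted from lists. bonsai, a small subunit protein outside the naming rule, had a mean of 0.30 in su(Hw)/Df larvae and did not pass. Of 26 tested genes for mitochondrial translation and gene expression, 2 were higher and 1 was lower than the pool in su(Hw)/Df larvae, with a median of 0.25, where 14.5% of all probes were higher and 13.2% lower. Those 2 were mTerf5, of the family of mitochondrial transcription termination factors, at 0.64, and the elongation factor mEFTs at 0.45, and the lower 1 was mtSSB, which binds single-stranded mitochondrial DNA, at -0.83. Of 68 tested genes of the respiratory chain and ATP synthase, 11 were higher (16.2%, against 14.5% of all probes) and 17 lower (25%, against 13.2%), with a median of -0.16. RFeSP, the Rieske iron-sulphur protein of complex III, was highest at 1.84, and ATPsynGL and ATPsynE were lowest at -1.35 and -1.23.

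The import genes, for the translocases that bring mitochondrial ribosomal proteins across the membranes, were lower or not called: 6 of 12 were lower and none higher in su(Hw)/Df larvae, with a median of -0.39 (13.2% of all probes were lower), and Tim9a and Tim8, chaperones of the space between the membranes, were lowest at -1.09 and -0.65. In su(Hw)/+ 9 of 12 were lower, against 13.7% of all probes, and in Df/+ 4 of 12, against 10.3%. Of 38 cytosolic ribosomal protein genes, 4 were higher and 14 lower in su(Hw)/Df larvae (10.5% and 36.8%), with a median of -0.26, beside -0.07 for the mitochondrial members. Fewer of these genes had the values to be tested against the heterozygotes. In larvae these were 19 translation and gene expression, 63 respiratory chain, 12 import and 35 cytosolic ribosomal genes, without bonsai. None of them passed in limma except the cytosolic RpL3, which was higher at 1.14 (SE 0.22, adjusted p 0.013). In discs 15, 53, 8 and 30 genes of the same lists and bonsai were tested, and none passed. The lists hold few genes each, and no test of a list was made.

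**Figure D5:**
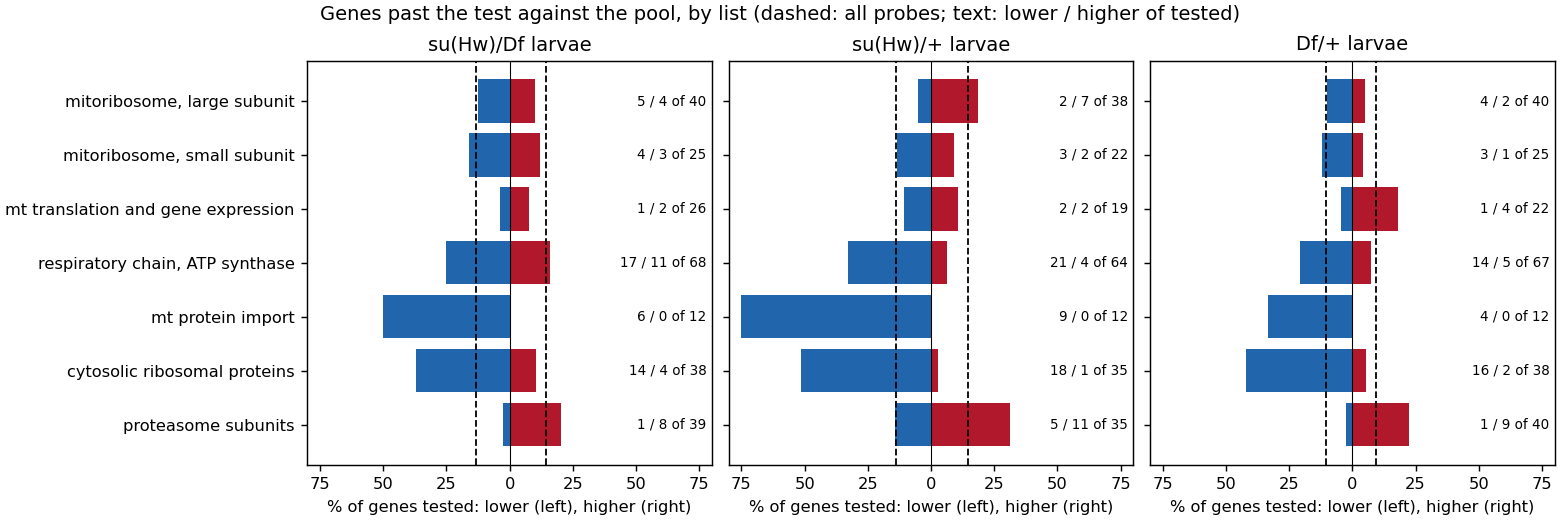
Bars give the share of tested genes in each list that was lower (left) or higher (right) than the pool at an adjusted p of 0.05 in larvae of each genotype, with dashed lines at the share of all probes and counts written at right. Both subunits of the mitochondrial ribosome have bars on either side in all 3 genotypes, while the import genes have bars on the lower side only.

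Markers of other tissues moved in the larval comparisons. Of 5 midgut genes tested, 1 was higher and 3 were lower in su(Hw)/Df than in the heterozygotes, with differences from -2.50 to 2.00, where 2.84% of all probes were called in either direction. All 3 fat body genes and 4 of 6 haemocyte genes were higher than the pool in su(Hw)/Df, with medians of 0.89 and 1.18, where 14.5% of all probes were higher. In su(Hw)/+ larvae 3 of 3 and 2 of 6 were higher (medians 0.69 and 0.51), where 14.6% of all probes were. In Df/+ larvae 1 of 3 and 1 of 4 were higher, where 9.38% of all probes were. Against the heterozygotes in larvae, only 4 haemocyte genes and the 3 fat body genes could be tested, and none passed. The list held 3 other fat body symbols that were not matched to a probe. In discs, none of 10 wing disc genes passed the test between su(Hw)/Df and the pool, with values from -0.13 to 0.37. In discs the 3 fat body genes lay below the pool in every genotype, at a median of -1.86 for su(Hw)/Df, -2.70 for su(Hw)/+ and -1.66 for Df/+. Fbp1, which encodes a fat body receptor for larval storage protein, passed at -2.25 (su(Hw)/Df) and -3.45 (su(Hw)/+), and the others did not pass. None of the 3 passed against the heterozygotes, at 0.32 to 1.01. Whether tissue makeup had a part in the members' values was not tested.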

How the data were processed

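RNA of 3 genotypes in 2 tissues was hybridized against wild-type pools on FL002 long oligonucleotide arrays. Larval RNA was labelled directly and disc RNA after synthesis of double-stranded cDNA by the labels, whereas the study's methods describe amplification. The authors deposited log2 ratios per spot, normalized by VSN over the 12 arrays of a tissue together, with dye swaps already turned. Base and direction were settled by setting genotype means beside means in the study's tables (3913 of 3913 within 0.01). Of 15158 probes, 714 with 3 or more spots counted as array controls and were not analysed. Of the other 14444, 12531 had 1 symbol, 96 several and 1817 none, and 12490 were matched to a Release 6 gene table, which gave names, arms and gene order.

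Log2 ratios were fitted in limma 3.58.1 (R 4.3.3) as 3 genotype means per tissue, on probes with 3 or more values in every genotype concerned, and with Benjamini-Hochberg adjustment over all probes at a threshold of 0.05. Tables were made in Python 3.11.15 with pandas 2.3.3 and numpy 2.4.6. The fit was tested on simulated data. Intensities and depth are not part of the values, so the number of arrays limits the precision. The paper calls the arrays of a genotype independent biological replicates. Named members were those past a test, up to 8 in each direction for su(Hw)/Df and 3 for the heterozygotes, or the 3 highest and lowest where none passed, those within 25 genes of su(Hw), mRpS22, mRpL33 and mRpL4, and others whose values were seen first. In lists, genes were matched by symbol or synonym, and a match of an old synonym to Arpc1 was left out. Members and lists were chosen with earlier results of these data known. Alternatives were other filters, centring, a dye covariate, a replicate block, a robust prior, an unmoderated test, and leaving out arrays.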

Additional observations from a re-analysis of the deposited data

Results flagged for a closer look

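Among 150 groups of 4 arrays looked at for the 31 named members, 5 held an array far from the other 3, by a test that flags about 1 group in 20 by chance. In larvae, mRpL20 had a Df/+ array at -1.13, with the others between -0.73 and -0.68, and mRpS11 had a su(Hw)/Df array at -1.42, with the others between -0.56 and -0.39. In wing discs, mRpS29 had a su(Hw)/Df array at 1.41, with the others between 0.00 and 0.14, and mRpS31 had a su(Hw)/+ array at 0.79, with the others between 0.14 and 0.25. mRpS9 had a su(Hw)/+ disc array at 5.94, with the others between -0.07 and 0.65. The mRpL20 value was replicate 3, and the mRpS11 value was replicate 4. The 3 disc values were all on replicate 2 arrays, of which the su(Hw)/Df array held 4972 probes and the su(Hw)/+ array 6056, among the fewest of the 12. Of 80 pairs of larval and disc groups, 0 had all arrays on opposite sides of 0.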

How the results depend on the processing

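No member was called between su(Hw)/Df and the heterozygotes, or between Df/+ and su(Hw)/+, in either tissue under any alternative run. Against the pool in larvae, the test without moderation called 1 member in su(Hw)/Df in place of 16, 2 in su(Hw)/+ in place of 14 and 0 in Df/+ in place of 10, and in su(Hw)/Df discs it called 0 in place of 1. That test estimates each probe's spread from 4 arrays or fewer. The share of all probes it called is not given here, so the fall in counts is no result about the members in particular. With dye orientation as a covariate, 17 members passed in Df/+ larvae, beside 28.2% of all probes in that fit. The replicate number as a block gave 19 members in each of the larval genotypes and changed no count in discs. For that fit too the share of all probes is not given, so the count of 19 is no result about the members in particular. The numbers were not taken as pairs. Deviations of arrays with the same number had median correlations of 0.21 in larvae (-0.03 to 0.54) and 0.18 in discs (-0.12 to 0.62). Arrays of other numbers with the same dye had medians of 0.25 and 0.26. In larvae and discs, 6 and 7 of 12 arrays correlated best with their own number, which also fixes the dye. With dye means removed, 0 and 3 of 12 did so.

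Leaving out each array in turn gave 10 to 16 members in su(Hw)/Df larvae, 6 to 16 in su(Hw)/+, 7 to 11 in Df/+ and 0 to 1 in su(Hw)/Df discs, where the call of mRpL11 ended without su(Hw)/Df replicate 1. The share of all probes called without each array is not given, here or above, so these ranges describe the members' calls only. No direction was reversed among the named members that were called. Each analysed probe had 1 spot, so the planned median over spots could give no other value. Signal over background was not used here.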
